A study of Mus musculus with 6 samples.

Results

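Respiratory complex I, or NADH:ubiquinone oxidoreductase, was followed at the level of its nuclear-encoded subunit transcripts. The members were all probe sets annotated to exactly 1 gene symbol starting with Ndufa, Ndufb, Ndufc, Ndufs, Ndufv or Ndufab, and the Ndufaf assembly factors were left out. This gave 78 probe sets of 36 genes among 45037 non-control probe sets. The rule used names and no measured value. Of the 78, 71 probe sets of 34 genes were bright enough to be tested, in a fit over 22519 probe sets and 11102 genes.

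Liver RNA of Nrf2 knockout mice (genotype Nrf2 ko) was hybridised to 3 Affymetrix arrays, and liver RNA of Nrf2 wild-type mice (genotype Nrf2 wt) to another 3. Both groups shared the C57B/SV129 strain background and an age of 10 weeks, and the labels name no treatment. RNA of 3 animals was pooled for each array, so the p-values reflect variation among pools, and variation among single animals is hidden. The labels give neither the targeting construct nor the cells in which the gene is absent, and do not say whether pools shared animals.

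Complex I takes electrons from NADH in the mitochondrial matrix, passes them along flavin and iron-sulfur clusters to ubiquinone, and pumps protons across the inner membrane. It is L-shaped, with a matrix arm that carries out the redox chemistry and a membrane arm that carries the proton channels. A small set of core subunits is shared with bacteria, and the many accessory subunits surround it and are needed for its assembly and stability. The membrane core is made from mitochondrial DNA and the remaining subunits from nuclear genes. Nrf2, the product of Nfe2l2, is a transcription factor best known for detoxification and antioxidant genes, and hepatocytes, which are rich in mitochondria, make up most of the liver's mass.

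The arrays matched their genotype labels at the brighter Nfe2l2 probe set, with intensities of 5.74 to 7.40 in knockout pools and 598 to 696 in wild-type pools. Signal per array differed within each genotype, the 2% trimmed mean intensity being 92.1, 101 and 120 for knockout arrays, against 131, 92.0 and 127 for wild-type arrays. On the deposited scale this spread was wider than most differences described below, so values are given after quantile normalization unless stated. Normalized intensities are linear, in arbitrary units, and differences are on the scale log2(intensity + 5.26), knockout minus wild type. The hepatocyte markers measured here had summed normalized intensities of 83971 to 87582 on knockout arrays and 81384 to 84035 on wild-type arrays. Of 9 tested, 6 had a positive difference, with a median of 0.02 log2 and Alb at -0.02 ± 0.07 (SE, n = 3 per genotype). Under the other scalings given below, their median was 0.06 with median centring, 0.06 with cyclic loess and 0.11 with equal trimmed means. On the deposited scale it was -0.05. Intensities of different probe sets do not rank the abundance of different transcripts. In whole liver, fewer cells of a type and less RNA per cell cannot be told apart.

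Complex I transcripts lay slightly higher in the Nrf2 knockout livers, and no single subunit passed the test. Of the 34 genes, 32 had a positive log2 difference at their brightest probe set and 2 a negative one, where 51.4% of all tested genes were positive. The median difference of the members was 0.12 log2, against 0.01 over all tested genes. By limma, with p-values adjusted by Benjamini-Hochberg across every tested probe set, 0 of 71 member probe sets passed an adjusted p of 0.05, the lowest adjusted p being 0.254, where 0.142% of all probe sets passed. At an unadjusted p under 0.05, 8 genes were higher and 1 was lower, where 4.07% of all tested genes were higher and 4.15% lower. The 3 knockout values all lay above the 3 wild-type values for 13 of the 34 genes and all below for 1, against 7.38% and 6.55% of all tested genes. Each count of members is a description, since transcripts of 1 complex measured on the same 6 arrays are not independent.

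The differences were small. They ran from -0.37 to 0.51 log2, or 0.772-fold to 1.42-fold, and 25 of the 34 were between 0 and 0.2 log2. The 95% interval held 0 for 25 genes, lay above 0 for 8 and below 0 for 1. Its upper end was under 0.5 for 29 genes and its lower end above -0.3 for 33. These limits hold for each gene singly after quantile normalization, and leave out the uncertainty that comes from the choice of scaling. The members were also measured tightly, with a median SD within a genotype of 0.07 log2, against 0.18 over all tested genes. Most members were bright: 28 of them lay in the brightest 10% of tested genes, whose median SD within a genotype was 0.11 log2. Among these 1111 genes, a background chosen after the values were seen, 52.8% were positive, with a median of 0.01, and 13.6% had the knockout wholly above the wild type. The 28 members in it had a median of 0.13, 27 were positive and 11 had the knockout wholly above.

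**Figure D1:**
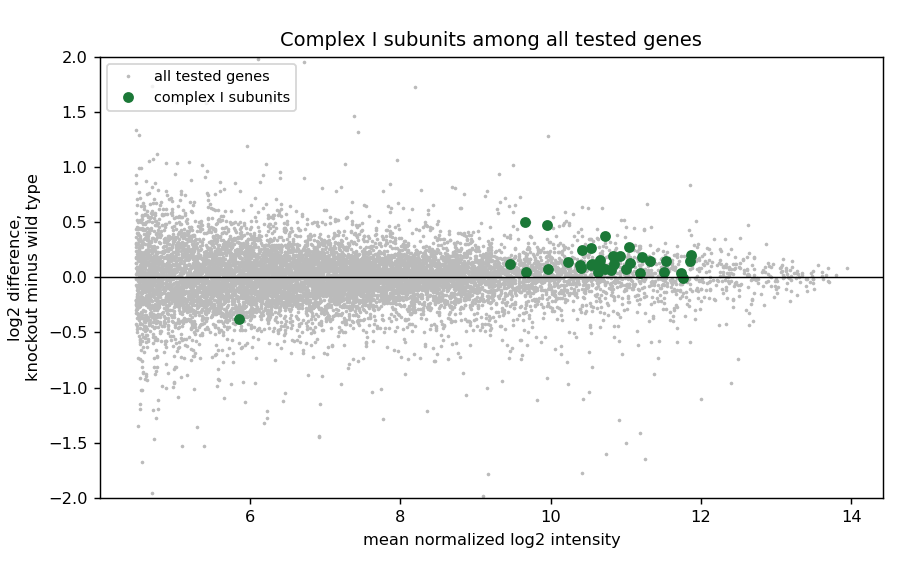
Log2 difference, knockout minus wild type, against mean normalized log2 intensity, with 1 point per tested gene at its brightest probe set (grey) and the 34 complex I subunits in green. The vertical axis is limited to -2 and 2, which leaves out 12 genes, none of them a complex I subunit. Most subunits sit just above 0 among the bright genes, and Ndufb1 lies below 0 among the dim ones.

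The core subunits of the matrix arm carry the flavin and the iron-sulfur clusters. Of the 6 measured, each at its brightest probe set, 5 had a positive difference and none reached an unadjusted p of 0.05. The median was 0.08 log2. Ndufv1, which binds NADH and the flavin, had normalized intensities of 1928, 1942 and 1855 in knockout pools, against 1835, 1651 and 1776 in wild-type pools. Its difference was 0.12 ± 0.08 log2 (SE, n = 3 per genotype; adjusted p = 0.754, limma), with the groups apart by a narrow margin. The other tested probe sets of Ndufv1 gave 0.15 ± 0.08 with the groups apart, and -0.001 ± 0.08 with overlapping groups. Its iron-sulfur partner Ndufv2 had 2175, 2372 and 2130 in knockout pools, against 2073, 1990 and 2026 in wild-type pools. The knockout pools were again all above, at 0.13 ± 0.08 log2 (adjusted p = 0.741). Its other tested probe sets gave 0.11 ± 0.07 with the groups apart, and 0.27 ± 0.11 with overlapping groups. The latter had an unadjusted p of 0.0408 and an adjusted p of 0.631 by limma.

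Ndufs1, the large iron-sulfur subunit that receives electrons from that pair, had 1023, 1047 and 998 in knockout pools, against 1026, 978 and 909 in wild-type pools. Ndufs3, a core subunit of the part that leads to ubiquinone, had 1713, 1800 and 1677 in knockout pools, against 1686, 1697 and 1539 in wild-type pools. Ndufs7, which holds the last iron-sulfur cluster before ubiquinone, had 1352, 1505 and 1317 in knockout pools, against 1305, 1265 and 1359 in wild-type pools. In all 3 the genotypes overlapped, with differences of 0.08, 0.08 and 0.09 log2 and adjusted p-values of 0.878, 0.866 and 0.859. Ndufs8, another iron-sulfur subunit, had 3793, 3306 and 3315 in knockout pools, against 3818, 3202 and 3448 in wild-type pools at its brightest probe set. That gave -0.01 ± 0.09 log2 (adjusted p = 0.992), and the sign of a value so near 0 changed with the scaling.

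The accessory subunits of the matrix arm included the member with the smallest p. All 8 measured had a positive difference, with a median of 0.12 log2, and 2 had an unadjusted p under 0.05. Of all tested genes, 51.4% were positive and 4.07% were higher at that p. Ndufa5, an accessory subunit of the ubiquinone-reducing part, had 1110, 1328 and 1059 in knockout pools, against 829, 813 and 858 in wild-type pools. The lowest knockout pool was above the highest wild-type pool, and the difference was 0.47 ± 0.10 log2, 1.39-fold (unadjusted p = 0.00139, adjusted p = 0.254 by limma). Its other tested probe set gave 0.43 ± 0.13 log2, also with the groups apart. Ndufa12, a paralogue of the assembly factor Ndufaf2, had 2511, 2643 and 2417 in knockout pools, against 2218, 2160 and 2273 in wild-type pools. The groups were apart, at 0.19 ± 0.07 log2 (adjusted p = 0.607), and its 3 tested probe sets were all positive.

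The other 6 matrix arm accessory genes lay between 0.07 log2 for Ndufa9, which has a dehydrogenase-like fold, and 0.25 for Ndufa2, which has a thioredoxin-like fold. Ndufs4, whose loss in mice gives a well-known model of mitochondrial encephalopathy, had 738, 728 and 716 in knockout pools, against 682, 680 and 648 in wild-type pools. The groups were apart, but by only 0.12 ± 0.08 log2 (adjusted p = 0.781). Ndufa6 was at 0.09, Ndufa7 at 0.12 and Ndufv3 at 0.12, with overlapping groups at the brightest probe set of each.

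The accessory subunits near the base of the membrane arm had the highest median of the 4 larger groups, 0.20 log2. All 8 measured were positive and 4 had an unadjusted p under 0.05, against 51.4% and 4.07% (higher) of all tested genes. Whether this group differs from the others was not tested. Ndufa3, a small membrane subunit, had 2132, 2481 and 2329 in knockout pools, against 1886, 1951 and 1898 in wild-type pools. The groups were apart, at 0.27 ± 0.08 log2 (adjusted p = 0.489), and a second probe set of the gene gave 0.35 ± 0.10. Ndufa1, an X-linked single-pass membrane subunit needed for assembly, had 3846, 4071 and 4047 in knockout pools, against 3331, 3486 and 3578 in wild-type pools. Its single probe set kept the groups apart, at 0.20 ± 0.07 log2 (adjusted p = 0.560).

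Ndufc1, a small subunit of the same region, had 1725, 2361 and 1746 in knockout pools, against 1460, 1385 and 1597 in wild-type pools. Knockout pool 2 stood well above the other pools, and the difference was 0.38 ± 0.13 log2 (adjusted p = 0.567). Ndufs5, a subunit on the intermembrane-space face given here because its difference was the largest seen, had 753, 1011 and 1157 in knockout pools, against 644, 915 and 516 in wild-type pools. Those groups overlapped, and the 0.51 ± 0.22 log2 (adjusted p = 0.643) carried a 95% interval of 0.01 to 1.01. A probe set that Ndufs5 shares with its pseudogene gave 0.18 ± 0.16, also with overlapping groups. The other 4 genes of this region were positive with overlapping groups. They were Ndufa10, which resembles nucleoside kinases, at 0.20, Ndufa13, also known as Grim19, at 0.15, Ndufa8 at 0.05 and Ndufc2 at 0.05.

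**Figure D2:**
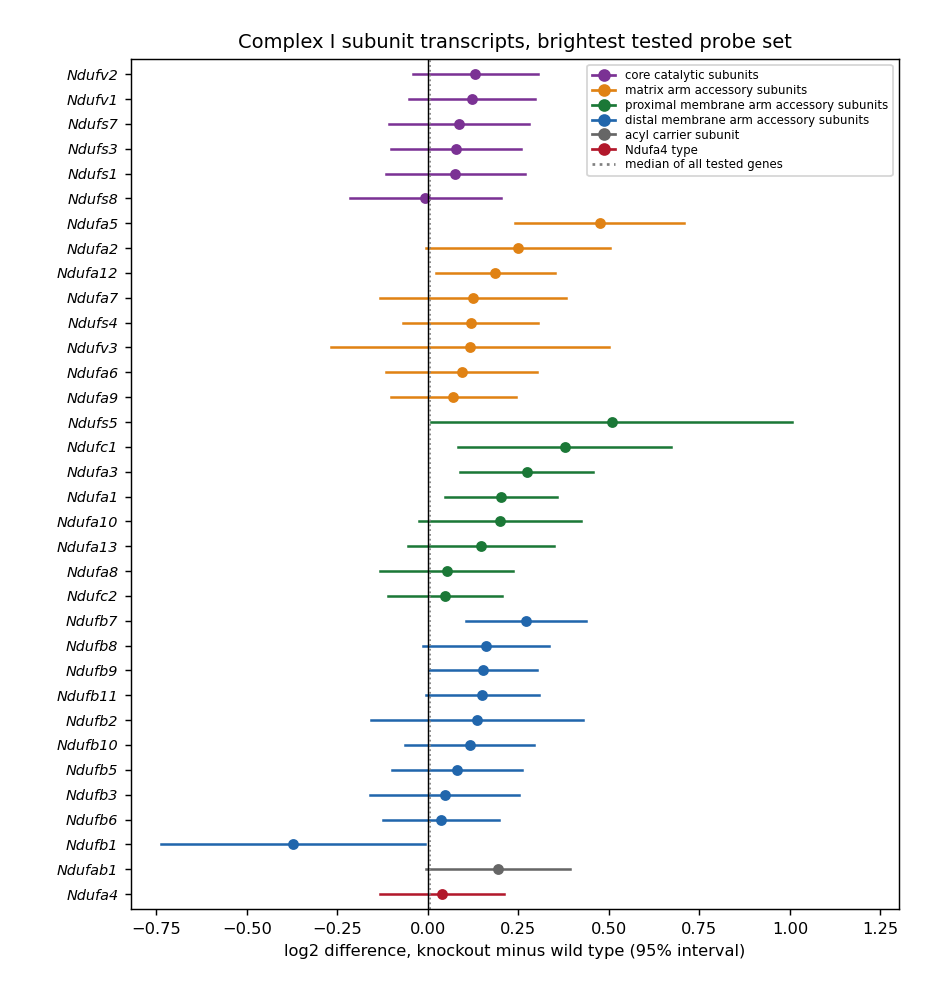
Log2 difference, knockout minus wild type, of each of the 34 tested complex I genes, with its 95% interval as a bar, coloured by place in the complex. Of the 34 points, 32 lie above 0, and the bars of 25 genes cross it. The dotted line marks the median of all tested genes, 0.01.

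The accessory subunits of the distal membrane arm were positive for 9 of 10 genes, with a median of 0.13 log2. Ndufb7, which sits on the intermembrane-space side, had 1581, 1668 and 1645 in knockout pools, against 1370, 1337 and 1346 in wild-type pools. Within each genotype the pools were close together, and the groups were apart at 0.27 ± 0.07 log2 (adjusted p = 0.427). Its other probe set gave 0.26 ± 0.10, also with the groups apart. Ndufb9, a subunit of the same arm, had 3783, 3935 and 3921 in knockout pools, against 3604, 3470 and 3395 in wild-type pools. That was 0.15 ± 0.07 log2 (adjusted p = 0.643), with a second probe set at 0.09 ± 0.06. Ndufb8 and Ndufb11, membrane subunits, also had the groups apart at their brightest probe sets, at 0.16 and 0.15 log2. The other tested probe set of Ndufb8, a dim one, gave -0.09 ± 0.18 with overlapping groups. Those of Ndufb11 gave 0.15 ± 0.07 with the groups apart and -0.03 ± 0.09 with overlapping groups. Ndufb2, Ndufb3, Ndufb5, Ndufb6 and Ndufb10 were between 0.04 and 0.14 log2 with overlapping groups.

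Ndufb1, a small membrane subunit, was the tested gene whose knockout pools were all lower. Its probe set had normalized intensities of 51.8, 45.4 and 39.4 in knockout pools, against 55.8, 64.9 and 60.3 in wild-type pools. The difference was -0.37 ± 0.16 log2 (unadjusted p = 0.0459, adjusted p = 0.642). Of the probe sets that stand for the 34 genes this was the dimmest, and the gene has no other probe set here with which to compare it.

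**Figure D3:**
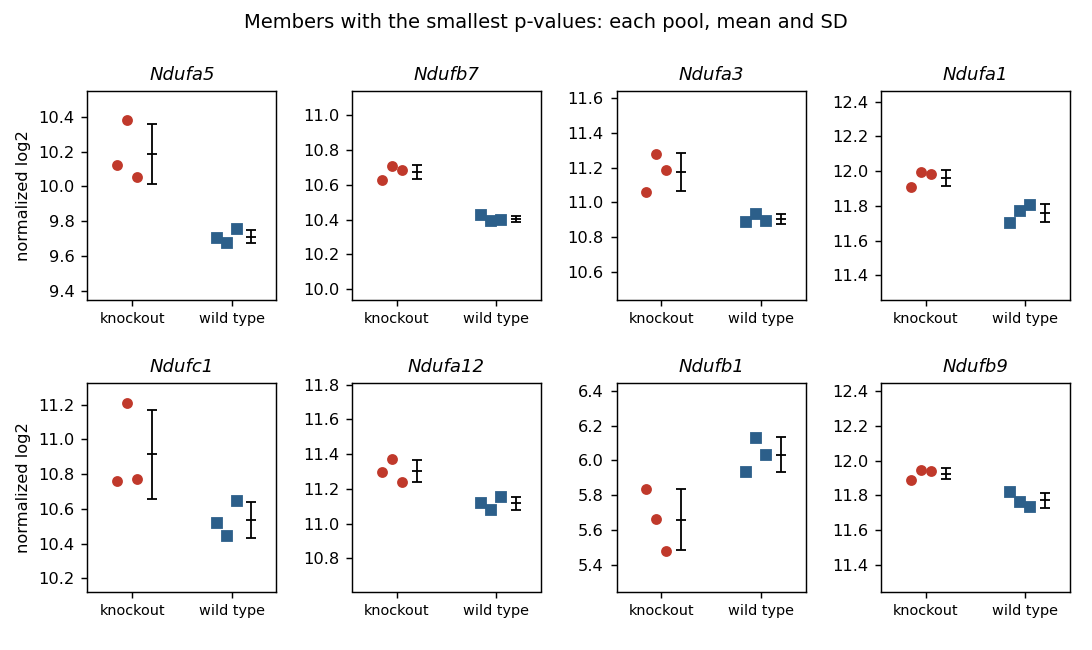
Normalized log2 values in each knockout pool (red circles) and each wild-type pool (blue squares), with the mean and SD of each genotype beside them, for the 8 complex I genes with the smallest limma p. Every panel spans the same range of log2 values. The knockout points lie above the wild-type points in 7 panels and below them in that of Ndufb1.

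Ndufab1, the mitochondrial acyl carrier protein that is also a complex I subunit, had 1857, 1997 and 1960 in knockout pools, against 1831, 1543 and 1722 in wild-type pools. The knockout pools were all above, at 0.19 ± 0.09 log2 (adjusted p = 0.658), and all 5 tested probe sets of the gene were positive. Ndufa4, which carries a complex I name but is now counted as a subunit of cytochrome c oxidase, was at 0.04 ± 0.07 log2 (adjusted p = 0.943). Its paralogue Ndufa4l2, a hypoxia-induced gene, fell under the brightness filter. In the fit without the filter it was at -1.02 ± 0.32 log2 (unadjusted p = 0.0115, adjusted p = 0.641). Its deposited intensities were 6.27, 9.27 and 9.86 in knockout pools, against 21.4, 30.0 and 21.9 in wild-type pools. All 3 knockout pools were lower, at intensities for which no limit of detection is given here. The other member under the filter, Ndufb4, had deposited intensities of 1.47 to 10.4 over the 6 pools at its single-gene probe set.

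Probe sets of the same gene mostly pointed the same way. Of the 71 tested probe sets, 64 were positive and 7 negative, where 50.8% of all tested probe sets were positive. Of the 71, 19 had an unadjusted p under 0.05 with a positive difference and 1 with a negative one. Over all tested probe sets these shares were 3.75% and 3.89%. The groups were apart with the knockout above for 31 of the 71 and below for 1, against 6.81% and 6.57% of all tested probe sets. Of 20 genes with more than 1 tested probe set, 15 had a single sign throughout, and the exceptions were Ndufa10, Ndufb8, Ndufb11, Ndufs8 and Ndufv1. Ndufs8 had 6 tested probe sets, from -0.24 to 0.29 log2. The dimmest gave -0.24 ± 0.35, the brightest -0.01 and another, with intensities of 1992, 2230 and 2445 in knockout pools and 2255, 1656 and 2172 in wild-type pools as deposited, gave 0.29 ± 0.07 log2 (unadjusted p = 0.00288, adjusted p = 0.359). That probe set is of a type (_x_at) whose probes can match several transcripts. Ndufa7 had 5 tested probe sets, from 0.12 to 0.51 log2, of which the brightest was the lowest. Its _x_at probe sets at 0.51 ± 0.14 and 0.48 ± 0.15 had the groups apart (unadjusted p = 0.00579 and 0.0114, adjusted p = 0.436 and 0.520 by limma). Those at 0.17 and 0.22 had overlapping groups, as had the brightest. No gene had probe sets of opposite sign that both reached an unadjusted p of 0.05.

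The small shift separated the pools of the 2 genotypes, and was largest on knockout pool 2. The median deviation of the members from their own means, less that of all genes, was 0.03, 0.09 and 0.04 log2 in knockout pools 1 to 3, against -0.04, -0.07 and -0.06 in the wild-type pools. Knockout pool 2 held the highest value of 21 of the 34 genes, where it held that of 23.5% of all tested genes. Wild-type pool 3 held the lowest value of 14, where it held that of 20.7% of all tested genes. Without knockout pool 2 the median difference was 0.11, with 32 of 34 genes still positive.

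The median difference of the members moved with the scaling of the arrays. The median of the members was 0.12 log2 after quantile normalization, 0.08 with arrays centred on their medians, 0.12 with cyclic loess and 0.13 with equal trimmed means. On the intensities as deposited it was -0.02, with 14 of 34 genes positive, and there the median of all tested genes was -0.14. Set against the median of all tested genes under the same scaling, the members lay higher by 0.12, 0.11, 0.11 and 0.12, and by 0.11 as deposited. This relative measure takes out whatever moves all genes of an array alike, so median centring and the deposited scale give the same values by construction, and the likeness of the others is in part fixed in the same way. Of the 34 genes, the groups were apart in 14 after quantile normalization, 5 after median centring and 16 with cyclic loess. They were apart in 14 with equal trimmed means and in 1 as deposited. The knockout was above in 13, 4, 15, 13 and 0 of these, in that order. Among all tested genes, 11102 after quantile normalization, the numbers apart were 1546, 1454, 1570, 1521 and 804 in the same order.

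**Figure D4:**
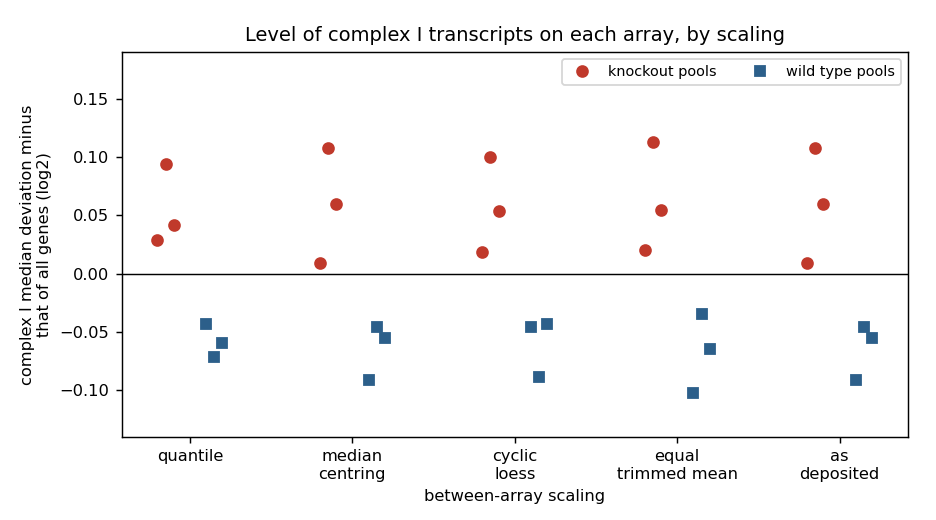
Median deviation of the complex I genes from their own means on each array, less that of all tested genes (log2), under 5 ways of scaling the arrays, of which median centring and the deposited scale coincide by construction. Red circles are the 3 knockout pools and blue squares the 3 wild-type pools. The knockout pools lie between 0.01 and 0.11 and the wild-type pools between -0.10 and -0.03.

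Subunits of the other respiratory complexes showed a difference of like size. Of 39 genes of complexes II to V, 36 were positive, with a median of 0.12 log2, and 13 had an unadjusted p under 0.05, all positive. Of all tested genes, 51.4% were positive, and at that p 4.07% were higher and 4.15% lower. None of them passed by limma over all probe sets, the lowest adjusted p being 0.439. The difference between the 2 lists was not tested. Other mitochondrial genes had smaller medians, 0.06 for 15 matrix enzymes that feed NADH production, of which 9 were positive, and 0.03 for 14 import and membrane proteins, of which 10 were positive. Median centring moved these last 2 medians to 0.01 and -0.02. It also moved the median of complexes II to V to 0.09, that of complex I to 0.08 and that of all tested genes to -0.03.

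Complex I assembly factors, which build the enzyme without staying in it, were mixed. Of 18 measured, 11 were positive and 7 negative, none passed, and the median was 0.06 log2. Ndufaf6 was at 0.40 ± 0.12, Ndufaf8 at 0.30 ± 0.14 and Acad9 at -0.29 ± 0.13 (adjusted p = 0.510, 0.666 and 0.644 by limma). Ecsit, which acts in assembly and in innate signalling, was at -0.16 ± 0.11. The single probe set for a subunit made from mitochondrial DNA, that of ND5, was at -0.03 ± 0.06 log2 (adjusted p = 0.944).

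Regulators of respiratory genes differed in both directions, with 10 of 15 positive and a median of 0.01 log2. With arrays centred on their medians it was -0.04, where that of all tested genes was -0.03. The coactivator gene Ppargc1a had the largest difference, 0.79 ± 0.24 (unadjusted p = 0.0105, adjusted p = 0.514), with overlapping groups. This was the brightest of its 5 tested probe sets, and the values of the others are not given here. The nuclear receptor gene Esrra, a partner of that coactivator, was at -0.26 ± 0.13, with the groups apart. Tfam, which packages and transcribes mitochondrial DNA, was at 0.13 ± 0.13, Tfb1m, a mitochondrial rRNA methyltransferase gene, at -0.22 ± 0.13, Nrf1 at -0.05 ± 0.21 and Gabpa at 0.01 ± 0.10, the last 2 encoding activators of respiratory genes. None of these passed.

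Promoter sequences of the members were read from RefSeq windows of GRCm38.p6, from 250 bases before to 50 after each start, and 32 of the 36 genes had one. The core of the antioxidant response element bound by Nrf2, TGACNNNGC on either strand, was present in 6 of the 32 (18.8%), and in 14% of 27025 genes with a window. These 6 were Ndufa1, Ndufa7, Ndufa9, Ndufa10, Ndufs5 and Ndufv2. The motif GCGCANGCG of the respiratory regulator NRF1, a factor distinct from Nrf2, was present in 6 of 32 (18.8%), against 7.03% of all, and these were Ndufa5, Ndufa6, Ndufa8, Ndufb4, Ndufb10 and Ndufs5. The ERR motif TCAAGGTCA was in 0 of 32 members and in 0.466% of all. The searched motifs can overlap one another, and a match is a run of letters, not a shown binding site.

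Windows are shown for the gene with the smallest p, for the tested member with the brightest probe set and for the gene with the largest difference, which also holds both motifs. Each is on the minus strand, at chr6:24527641-24527940 for Ndufa5 (1 of its 2 windows), chrX:37191189-37191488 for Ndufa1 and chr4:123718137-123718436 for Ndufs5, and capitals mark the matched motifs. The NRF1 motif begins 26 bases before the start in Ndufa5, the antioxidant core 105 bases before it in Ndufa1, and in Ndufs5 the antioxidant core 228 and the NRF1 motif 98 bases before it.
Ndufa5: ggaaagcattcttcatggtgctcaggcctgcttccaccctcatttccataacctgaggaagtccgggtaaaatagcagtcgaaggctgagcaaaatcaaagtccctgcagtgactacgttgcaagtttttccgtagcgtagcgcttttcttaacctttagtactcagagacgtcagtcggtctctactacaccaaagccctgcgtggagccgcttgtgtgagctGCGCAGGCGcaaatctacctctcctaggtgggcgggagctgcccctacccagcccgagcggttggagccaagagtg
Ndufa1: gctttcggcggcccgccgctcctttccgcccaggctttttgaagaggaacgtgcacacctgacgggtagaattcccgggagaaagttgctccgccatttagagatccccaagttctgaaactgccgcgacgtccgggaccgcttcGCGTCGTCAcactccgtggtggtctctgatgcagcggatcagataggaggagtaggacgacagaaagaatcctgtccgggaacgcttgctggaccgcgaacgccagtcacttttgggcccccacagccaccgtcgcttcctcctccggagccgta
Ndufs5: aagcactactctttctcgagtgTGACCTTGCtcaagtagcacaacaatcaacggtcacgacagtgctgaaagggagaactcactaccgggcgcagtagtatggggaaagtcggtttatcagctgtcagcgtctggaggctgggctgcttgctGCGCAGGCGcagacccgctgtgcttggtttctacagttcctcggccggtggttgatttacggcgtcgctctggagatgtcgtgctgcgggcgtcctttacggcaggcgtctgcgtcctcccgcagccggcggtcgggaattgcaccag
The arrays read no binding at these windows. The tested genes with the NRF1 motif had differences of 0.47 (Ndufa5), 0.09 (Ndufa6), 0.05 (Ndufa8), 0.12 (Ndufb10) and 0.51 log2 (Ndufs5). Those with the antioxidant core had 0.20 (Ndufa1), 0.12 (Ndufa7), 0.07 (Ndufa9), 0.20 (Ndufa10), 0.51 (Ndufs5) and 0.13 log2 (Ndufv2). Both sets spanned small and larger differences, and no link between motif and difference was tested.

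RNA quality and the markers of other liver cells were read on the same arrays. For actin the ratio of 3′ to 5′ control signal averaged 1.97 ± 0.03 on knockout arrays, against 1.86 ± 0.08 on wild-type arrays (SD, n = 3 each), each knockout array being higher (exact permutation test, two-sided, p = 0.1, the smallest possible). For Gapdh it averaged 0.767 ± 0.037 on knockout arrays and 0.760 ± 0.006 on wild-type arrays (exact permutation p = 0.9). Stellate cell and fibroblast markers were positive for 10 of 10 genes with a probe set, where 51.4% of all tested genes were positive. Their median was 0.22 log2. Their summed normalized intensity ran from 3728 to 4011 on knockout arrays and from 3210 to 3540 on wild-type arrays. Desmin, Des, had the largest difference of them, 1.00 ± 0.31 log2 (adjusted p = 0.514), at dim deposited intensities of 22.1, 29.8 and 28.8 in knockout pools, against 18.0, 12.9 and 6.02 in wild-type pools. Its wild-type mean of 4.05 log2 was under the brightness filter at 4.48, so it was tested only through its knockout values. None of the markers passed, and the part of these values in the complex I shift was not tested. Summed markers of Kupffer cells, 6181 to 8129 on knockout arrays and 6214 to 7393 on wild-type arrays, and of endothelial cells, 3169 to 3397 on knockout arrays and 2961 to 3241 on wild-type arrays, overlapped between the genotypes. By gene, 7 of 10 Kupffer cell markers were positive, with a median of 0.16 log2, and 6 of 10 endothelial markers, with a median of 0.07. Of 9 lymphocyte and granulocyte markers with a probe set, 5 were tested, and all 5 were positive, with a median of 0.24. Among these, Ms4a1 had a wild-type mean of 4.45 log2, under the filter at 4.48, so it was tested only through its knockout values. The summed intensities of the 5 markers, 273 to 544 on knockout arrays and 340 to 355 on wild-type arrays, overlapped. Of 2 tested cholangiocyte markers, 0 were positive, with a median of -0.22. Red blood cell markers were positive for 2 of 3 tested, with a median of 0.08. Muscle and fat markers were positive for 1 of 2 tested, with a median of -0.05. Of the latter, Ckm had a knockout mean of 4.41 log2, under the filter at 4.48, so it was tested only through its wild-type values.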

How the data were processed

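The deposited values are linear probe set intensities, from 0.0174 to 16555, made with GCOS 1.4 per the submitters' processing notes. How signals were computed, scaled and filtered is not given in the sources used here. Detection calls were not used. Names came from the annotation of the platform, with 34945 of the non-control probe sets having 1 gene, 932 several and 9160 none, and symbols were updated by Entrez identifier for 34741.

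Quantile normalization was run on log2(intensity + 5.26), where 5.26 is the 25th percentile of the table. Probe sets at or above the median brightness were tested with limma 3.58.1 in R 4.3.3 (lmFit, eBayes with an intensity trend; Benjamini-Hochberg over 22519 probe sets; threshold 0.05). A gene took its brightest tested probe set. Fold changes on this scale understate dim probe sets. The procedure was tested on simulated data. Named were the 8 genes with the smallest p, the core subunits, the brightest and the dimmest member, and up to 3 genes of each other list. The members and lists were chosen with earlier results of these data known. The 6 arrays limit the precision. Replicate numbers were not treated as pairs, since the labels do not say that equal numbers share animals or a day. Deviations of same-numbered arrays correlated at 0.13, 0.05 and 0.25 across probe sets.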

Additional observations from a re-analysis of the deposited data

How the results depend on the processing

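No complex I probe set passed under any alternative run, and no value of the 14 genes given by pool passed, the lowest adjusted p being 0.179. All tested probe sets gave 32 calls, against 20 unfiltered, 19 when filtered at the 70th percentile, 18 without the intensity trend, 143 without normalization and 18 to 29 with 1 pool left out (19 without knockout pool 1 or 2, 18 without wild-type pool 2). Of complex I genes, 9 had an unadjusted p under 0.05. This count was 3 with median centring, 5 with equal trimmed means, 0 without normalization and 5 without the intensity trend. It was 5 to 10 with 1 pool left out, 5 without knockout pool 2 or wild-type pool 1. The count over all tested genes, 11102 in the main run, was 913 there. Over all tested genes it was 874 with median centring, 877 with equal trimmed means, 559 without normalization and 773 without the intensity trend. The 14 genes whose groups did not overlap became 5 with median centring and 1 without normalization. Over all tested genes, 1546 had groups that did not overlap, 1454 with median centring and 804 without normalization. Without normalization 14 of 34 genes were positive, with a median of -0.022, and the median with median centring was 0.083. With 1 pool left out the median ran from 0.11 to 0.15. Signs turned without normalization for Ndufv1 (-0.036), Ndufv2 (-0.010), Ndufs1 (-0.084), Ndufs3 (-0.071) and Ndufs7 (-0.069). That of Ndufs8 turned with cyclic loess (0.021), equal trimmed means (0.047), array weights (0.0021) and the mean of probe sets (0.062), and without knockout pool 2 or 3 or wild-type pool 1, running from -0.072 to 0.062 with 1 pool left out. With the replicate number as a block, 32 probe sets passed, 0 of them complex I. In that run 8 complex I genes had an unadjusted p under 0.05, all positive, against 1073 of all tested genes in either direction. The numbers were not taken as pairs, since the labels do not say that equal numbers share animals or a day. Among arrays of the other genotype, 4 of 6 arrays correlated best with the array of their own number. Whether any pairing exists was not tested. Leaving out probe sets ending in _s_at or _x_at, chosen after seeing the data, kept 29 of 31 genes positive with a median of 0.12. The cause of each change was not tested. The brightness of Ndufb1, Ndufb4 and Ndufa4l2 limits what is known of them.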

Other observations

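Several complex I subunits were read only, or also, by probe sets annotated to more than 1 gene, which lie outside the rule above. Of 10 such probe sets, those of Ndufb4 and its copies Ndufb4b and Ndufb4c were at 0.33 ± 0.09 and 0.30 ± 0.08 log2, knockout minus wild type (SE, n = 3 per genotype; adjusted p = 0.436 and 0.427 by limma), each with all 3 knockout pools above the wild-type pools. The probe set of the zinc-binding subunit gene Ndufs6 and its copy Ndufs6b was at 0.24 ± 0.09 (adjusted p = 0.577), also with the groups apart. That of Ndufa11 and Ndufa11b, a subunit of the membrane arm, was at 0.14 ± 0.10 with overlapping groups, and a dimmer one was at 0.13 ± 0.24. The probe set shared by Ndufs5 and its pseudogene was at 0.18 ± 0.16, against 0.51 ± 0.22 at the probe set of Ndufs5 alone. Which of the copies gave these signals cannot be told from the arrays.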
